A study of Vigna unguiculata subsp. sesquipedalis with 24 samples.

Results

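A set of 174 unigenes whose transcripts were less abundant in leaves and more abundant in roots under drought was taken from the 29471 unigenes of a custom NimbleGen array of cowpea, the species to which asparagus bean belongs. A unigene is a transcript sequence assembled from cDNA reads, named by a UP12 number. For each line and organ, the drought change was taken as the mean log2 intensity of the drought arrays minus that of the well-watered arrays. A unigene was a member where this change was below -0.7 in the leaves of both lines and above 0.7 in the roots of both lines, and where at least 1 group mean reached 8 on the log2 scale. These 4 changes chose the members, so they are described here without a test. The members were 0.590% of all unigenes, 6.79% of the 2563 with a change below -0.7 in both leaf comparisons and 4.40% of the 3958 with a change above 0.7 in both root comparisons. At the same thresholds, 166 unigenes had the opposite pattern, 1314 were lower under drought in both organs and 807 were higher in both.

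The material was the asparagus bean line B128, labelled isohydric like, and the line B47, labelled anisohydric like. These terms are given as the labels write them and serve only as names, since transpiration records of the study, not analysed here, describe B47 as the line more sensitive to drying soil, which sits against the usual sense of the labels. In each line, 16-day-old seedlings were either kept well-watered or given no irrigation, and leaflets of the first trifoliate leaf and roots were harvested on day 15, with the plants of a pot mixed, which gives 8 groups of 3 arrays. The labels call the 3 arrays of a group biological replicates. For the 6 arrays of drought-stressed roots, 1 field of the labels says root and another says leaves. They were taken as roots, which the leaf markers given below bear out. Each line is a single landrace, sampled on 1 day of the treatment, so the groups describe these plants on that day. At sampling, the study reports a higher leaf water content, relative to full turgor, in drought-stressed B47 than in drought-stressed B128. The values of the well-watered plants were similar. In whole organs, fewer cells of a type and less RNA per cell cannot be told apart.

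Shoots and roots respond to drying soil in different ways. Leaves lose turgor, close stomata and slow growth and assimilation, whereas roots are in direct contact with the drying soil and often keep growing while the shoot stops. Hormones, sugars, sulfate and peptides move between the organs, and the enzymes and transporters that make or carry them are encoded by gene families whose members are expressed in different organs.

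The drought change on the log2 scale had a median over the 174 unigenes of -1.54 in the leaves of B47 and -1.41 in those of B128, against 1.83 and 1.51 in the roots. Over all unigenes the 4 medians lay between 0.05 and 0.11. The largest change of a member was -5.04 in leaves and 7.13 in roots, and the smallest of the 4 changes was at least 1 in absolute value for 86 members, at least 1.5 for 27 and at least 2 for 4. The 3 drought arrays lay below the 3 well-watered arrays for 168 members in B47 leaves, where 25.2% of all unigenes did so, and for 154 in B128 leaves, where 21.4% did so. In roots, the drought arrays lay above the well-watered arrays for 165 members in B47 (34% of all unigenes) and for 153 in B128 (30.8%). For 127 members, and for 1.21% of all unigenes, the groups did not overlap in any of the 4 comparisons and lay in these directions. In the array-wide limma fit, a unigene was called where it changed 2-fold or more with an FDR no higher than 0.01. By this measure, 115 members fell in B47 leaves (8.18% of all unigenes), 105 fell in B128 leaves (8.35%), 142 rose in B47 roots (10.9%) and 113 rose in B128 roots (10.5%). These shares follow from the choice of the members and are given as a description. Of the 174, 50 passed in all 4 comparisons, as did 0.176% of all unigenes in the same directions.

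**Figure D1:**
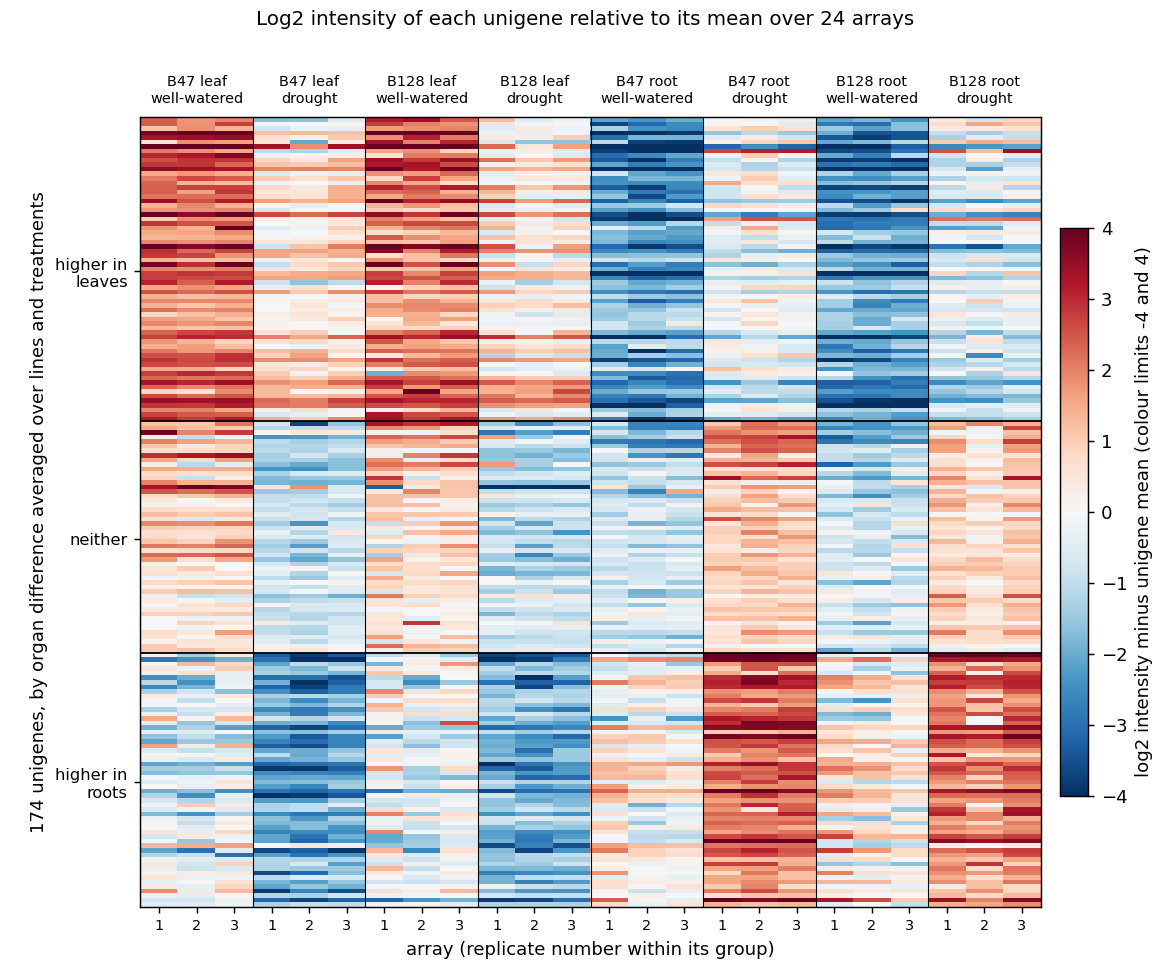
Each row is 1 of the 174 unigenes and each column 1 of the 24 arrays, and the colour gives the log2 intensity minus the mean of that unigene over all arrays. Rows are grouped by the test of leaf against root averaged over lines and treatments, with 67 unigenes higher in leaves, 51 in neither organ and 56 higher in roots, and in each block the drought arrays are lower in leaves and higher in roots.

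The median level over the members was alike in the lines. In well-watered leaves it was 10.73 in B47 and 10.59 in B128, and under drought 8.86 and 9.09. In well-watered roots it was 8.47 and 8.52, and under drought 10.68 and 10.40. The medians over all unigenes stayed between 10.57 and 10.61 in the 8 groups. Within groups, single arrays stood apart for some members. Replicate 2 of the B128 drought roots was the lowest of its group for 98 members (56.3%, against 43.0% of all unigenes) and lay at least 1 log2 unit from its group mean for 21 members, more than for any other array. Replicate 1 of the well-watered B128 leaves lay that far from its group mean for 18 members. Over all 29471 unigenes this leaf array did so most often of all arrays, for 1217, against 686 for replicate 2 of the B128 drought roots. Without replicate 2 of the B128 drought roots the rule gave 190 members, of which 172 were among the 174.

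Markers of the organs were read to check the labels. Of 27 unigenes annotated as chlorophyll a-b binding proteins, photosystem subunits or the small chain of ribulose bisphosphate carboxylase, 25 were higher in well-watered leaves than in well-watered roots and 26 under drought. Of 21 unigenes annotated as Casparian strip membrane proteins, root-specific proteins or nodulins, 20 were higher in well-watered roots and 14 under drought. None of the 174 unigenes is in either list. In the 6 arrays taken as drought-stressed roots, the leaf list had array medians of 6.06 to 7.11, against 5.9 to 8.11 in well-watered roots. These lay below those of drought-stressed leaves, so the leaf markers go with the root field of the labels. Over the leaf list the array medians were 11.1 to 12.2 in well-watered leaves and 9.75 to 10.6 in drought-stressed leaves, so the leaf markers moved in the direction of the members in leaves. The root list had array medians of 11.0 to 11.7 in well-watered roots and 8.67 to 9.83 in drought-stressed roots, opposite to the members. What part such organ-wide shifts have in the drought changes was not tested.

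A description was given for 46 of the 174 in the gene tables of the study, which annotate 2206 unigenes by their closest protein, mostly of Arabidopsis thaliana. For 38 of the 46 the description names a protein, and the following paragraphs take these by role. The 2206 favour drought-responsive unigenes, since 99.5% of them passed the test in at least 1 drought comparison, whereas 38.9% of all unigenes did. The counts that passed in the lists below reflect this choice. They were not set against shares of all unigenes that passed in both comparisons. Of the 2206, 2.09% are members, the share to read beside the member counts of the lists. Several members with the same description can be parts of 1 gene or close copies that share probes, which cannot be told apart without their sequences.

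**Figure D2:**
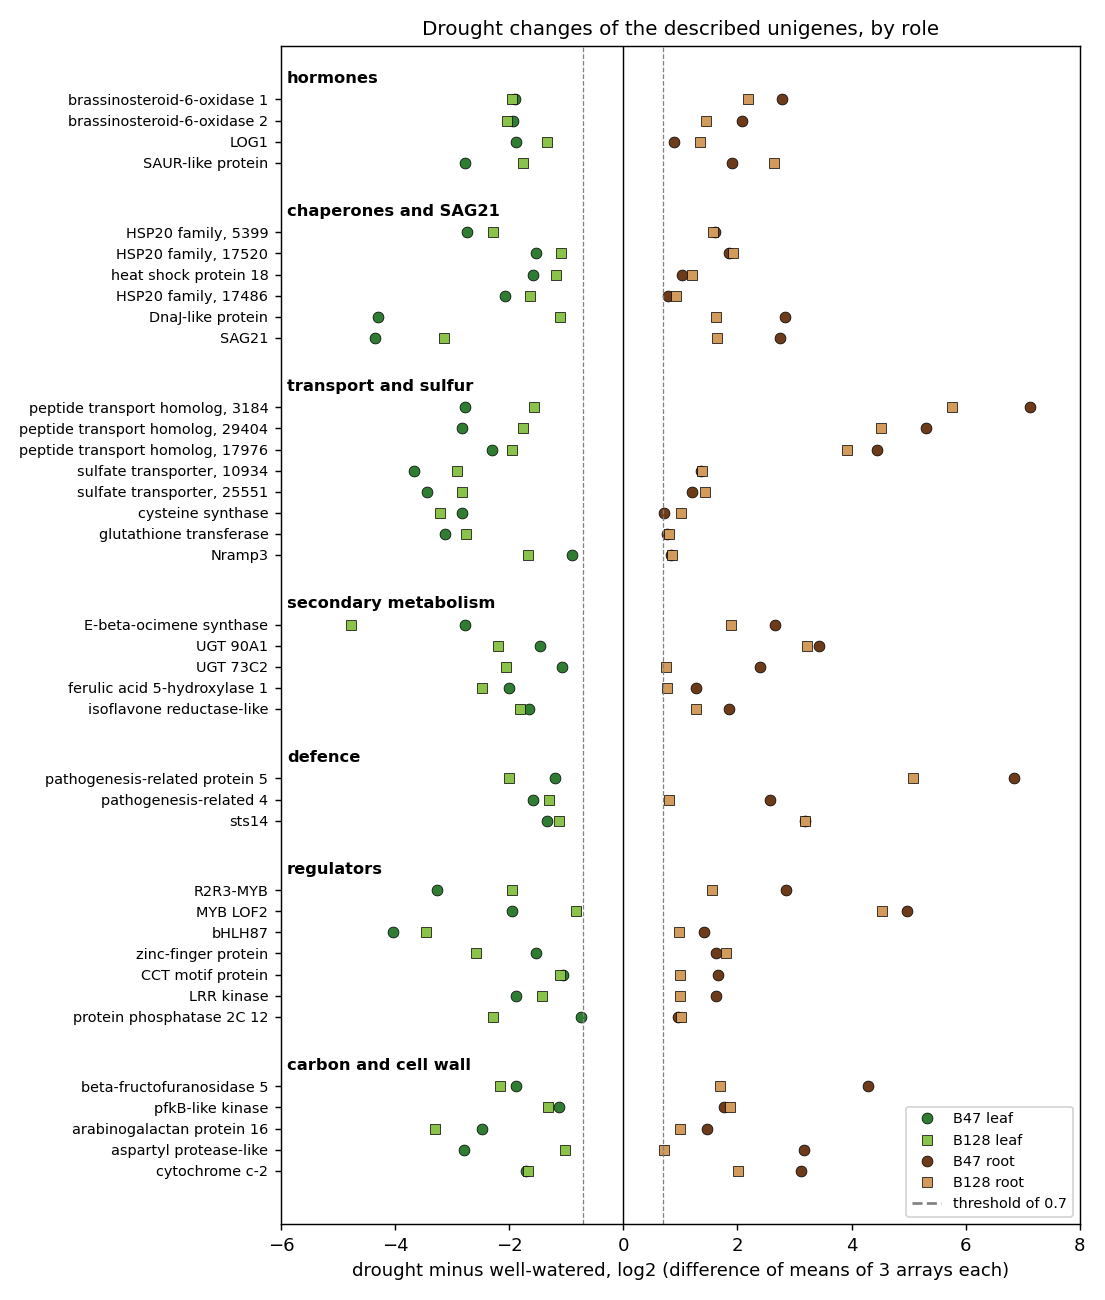
The drought change in log2 units is plotted for the 38 described unigenes in B47 leaves, B128 leaves, B47 roots and B128 roots, each point being the difference between means of 3 arrays. All leaf points lie below -0.7 and all root points above 0.7, as the rule requires, and the widest root rises are those of a peptide transport homolog (7.13 in B47) and pathogenesis-related protein 5 (6.86 in B47).

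The 2 unigenes with the largest values of the smallest change have no description. UP12_1576 read 11.11, 10.98 and 12.01 in well-watered B47 leaves and 9.17, 6.21 and 8.33 under drought, and in B128 leaves 13.24, 12.87 and 13.14 against 8.47, 7.39 and 8.26. In roots it read 9.21, 7.26 and 7.32 against 10.99, 12.08 and 11.65 in B47, and 8.05, 7.57 and 8.34 against 11.15, 11.84 and 11.35 in B128. The well-watered leaf and drought root arrays were thus the high ones in both lines, with no overlap, and the largest fold was the 33.0-fold lower level in drought-stressed B128 leaves. In the roots, UP12_2892 under drought was at 13.20, 13.57 and 12.93 in B47 and 13.20, 13.20 and 13.18 in B128, against 7.97 ± 0.59 and 8.37 ± 0.16 (mean ± SD, n = 3, as for all values with ± below) in well-watered roots. In leaves it was at 8.23 ± 0.88 in B47 and 7.58 ± 0.47 in B128 and at 5.09 ± 0.29 and 5.05 ± 0.16 under drought, near the low end of the scale. Averaged over all conditions it was higher in roots (leaf minus root -4.21, SE 0.17, limma adjusted p = 1.29e-14).

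Other members with no description had some of the largest single changes and were named after their values were seen. UP12_3777 had the largest leaf difference in B47, with 13.21, 11.70 and 12.60 in well-watered and 7.51, 8.65 and 7.76 in drought-stressed arrays, a 23.1-fold lower level, beside root changes of 2.47 in B47 and 0.74 in B128. UP12_25949 rested at 4.25 ± 0.44 and 4.38 ± 0.14 in well-watered roots of B47 and B128 and reached 8.98 ± 0.22 and 8.97 ± 1.24 under drought, where B128 replicate 2 read 7.55 beside 9.55 and 9.82. The 3 drought arrays still lay above all well-watered ones in each line. UP12_6017 combined a 17.5-fold and 21.1-fold higher root level under drought with leaf changes of only -0.72 and -0.90, from leaf means of 13.88 ± 0.17 and 13.56 ± 0.14. UP12_15841, the fourth by rank, had leaf changes of -2.33 and -2.07 and root changes of 2.97 and 3.68, and its drought levels in B47 were 8.34 ± 0.10 in leaves and 8.19 ± 0.32 in roots.

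Hormone-related members comprised 4 unigenes, 2 of which belong to brassinosteroid synthesis. Brassinosteroid-6-oxidases carry out a late oxidation step in the synthesis of brassinosteroids, steroid hormones that promote cell elongation. Brassinosteroid-6-oxidase 1 (UP12_23448) read 11.09, 11.78 and 11.32 in well-watered B47 leaves and 9.17, 9.69 and 9.61 under drought, and 11.61, 11.80 and 11.93 against 9.47, 10.30 and 9.73 in B128 leaves. In roots the values were 8.68, 7.54 and 7.38 against 10.48, 10.94 and 10.52 in B47 and 8.51, 7.82 and 8.32 against 10.30, 10.33 and 10.58 in B128. The 2 lines ran in parallel, with leaf levels 3.74-fold and 3.86-fold lower under drought and root levels 6.87-fold and 4.54-fold higher, and no arrays overlapped. In well-watered plants this unigene was higher in leaves than in roots, and under drought higher in roots, in both lines. Brassinosteroid-6-oxidase 2 (UP12_5008) gave changes of -1.93 and -2.04 in B47 and B128 leaves and of 2.08 and 1.45 in roots, with the same order of groups. Of 7 unigenes in a brassinosteroid list drawn up after the values were seen, all 7 passed the test as lower in both leaf comparisons, and these 2 were the only ones that passed as higher in both root comparisons.

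The cytokinin-activating enzyme LOG1 (UP12_25118), which releases the active cytokinin base from its nucleotide, was at 13.15 ± 0.15 in well-watered B47 leaves and 11.27 ± 0.21 under drought, and at 12.90 ± 0.28 and 11.56 ± 0.24 in B128. Its root levels were 9.81 ± 0.39 and 10.70 ± 0.40 in B47 and 9.05 ± 0.05 and 10.40 ± 0.09 in B128, so it stayed higher in leaves under drought. The other LOG unigene annotated, LOG3 (UP12_2583), had leaf changes of 4.39 and 4.26 and root changes of 0.03 and 0.08. A SAUR-like protein (UP12_21385), of a family of small proteins that auxin induces, was 6.85-fold lower in drought-stressed B47 leaves and 3.41-fold lower in B128 leaves, and 3.73-fold and 6.25-fold higher in roots. Of the 27 unigenes in the list for auxin, cytokinin and gibberellin, 15 passed as lower in both leaf comparisons and 3 as higher in both root comparisons, and 2 were members. All 4 hormone-related members were higher in leaves averaged over all conditions, with leaf minus root differences from 1.34 (SE 0.15) for brassinosteroid-6-oxidase 1 to 3.50 (SE 0.18) for the SAUR-like protein and limma adjusted p of 6.29e-08 and 6.46e-13.

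**Figure D3:**
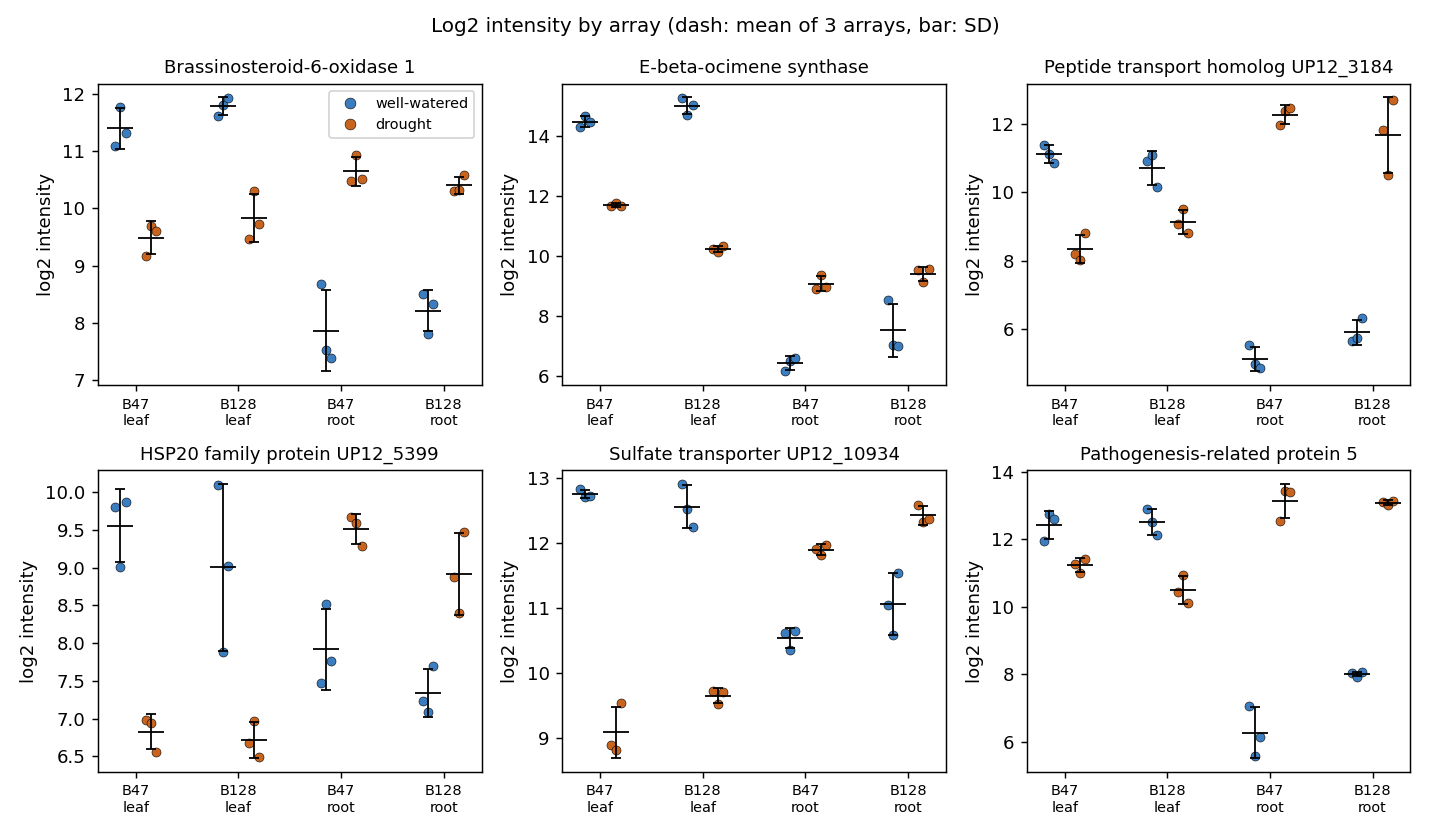
Log2 intensity of 6 members in each of the 24 arrays, with the mean (dash) and SD (bar) of the 3 arrays of a group. In each panel the drought points lie below the well-watered points in both leaf groups and above them in both root groups, and the widest gap is that of peptide transport homolog UP12_3184 in B47 roots, with means of 5.13 and 12.26.

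Chaperones gave 5 members, namely 4 small heat shock proteins of the HSP20 class, which hold unfolding proteins in solution, and a DnaJ-like protein, a class of co-chaperones of Hsp70. The unigene UP12_5399, described as an HSP20 family protein, read 9.80, 9.01 and 9.87 in well-watered B47 leaves and 6.98, 6.93 and 6.56 under drought, and 10.10, 7.89 and 9.02 against 6.68, 6.96 and 6.49 in B128. In roots it read 7.47, 8.52 and 7.76 against 9.67, 9.59 and 9.29 in B47 and 7.23, 7.09 and 7.69 against 8.88, 8.40 and 9.48 in B128. The well-watered B128 leaf arrays were the most spread, yet all lay above the drought arrays. The other 3 (UP12_17520, UP12_22380, described as heat shock protein 18, and UP12_17486) had well-watered leaf means between 12.03 and 12.93, and their 4 changes were between 0.78 and 2.07 in absolute value.

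In the DnaJ-like unigene (UP12_396) the lines differed in size of change. It was at 10.63 ± 0.68 in well-watered B47 leaves and 6.33 ± 0.43 under drought, a 19.7-fold lower level, and at 8.43 ± 0.49 and 7.33 ± 0.27 in B128 leaves, a 2.15-fold lower level. In roots it was 7.12-fold higher under drought in B47 and 3.07-fold higher in B128, and it was the only one of the 5 that passed the organ test, being higher in roots (leaf minus root -2.66, SE 0.17, limma adjusted p = 2.66e-11). SAG21 (UP12_4312), a senescence-associated protein related to the late embryogenesis abundant proteins, read 13.29, 13.55 and 13.81 in well-watered B47 leaves and 8.97, 9.61 and 9.03 under drought. In B128 leaves it read 10.05, 12.31 and 13.16 against 8.69, 8.46 and 8.93, so that 1 well-watered array was far below the others of its group. Root levels were 6.68-fold higher under drought in B47 and 3.11-fold higher in B128.

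The chaperone members were a minority of their class. Of 34 unigenes annotated as heat shock or DnaJ proteins, a list drawn up after the values were seen, 14 passed as higher in both leaf comparisons and 18 as higher in both root comparisons, whereas 13 passed as lower in both leaf comparisons and 5 as lower in both root comparisons. In each comparison taken alone, 7.86% of all unigenes passed as higher in B47 leaves and 6.31% in B128 leaves. In the roots of B47 and B128, 11.6% and 11.2% passed as lower. These shares need only a single comparison and cover all unigenes, so they are not a like measure for the counts of this annotated list. Heat shock protein 21 (UP12_11602), the small heat shock protein of plastids in Arabidopsis, had leaf changes of 6.07 and 7.03 and root changes of 3.15 and 4.62, and an HSP20-like chaperone (UP12_18507) had leaf changes of 3.26 and 5.20 and root changes of 5.05 and 7.19. The median change of the 34 was -0.26 and -0.48 in leaves and 1.22 and 1.39 in roots, beside member medians of -2.07, -1.19, 1.60 and 1.58.

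**Figure D4:**
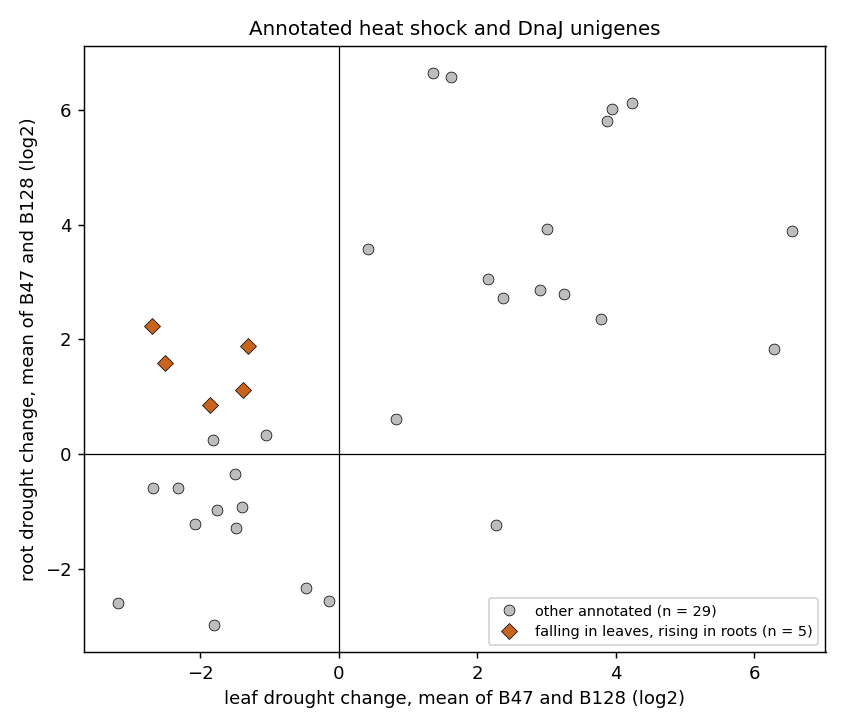
Each point is 1 of 34 unigenes annotated as heat shock or DnaJ proteins, with the leaf drought change on the horizontal axis and the root drought change on the vertical axis, both in log2 units and averaged over B47 and B128. The 5 members are the diamonds to the left of 0 for leaves and above 0 for roots, whereas 14 of the 34 passed as higher in both leaf comparisons, up to 7.03 in B128 for UP12_11602.

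Transporters and sulfur metabolism contributed 8 members. The unigenes UP12_3184, UP12_29404 and UP12_17976 carry the same description, a protein similar to a peptide transport homolog, of a family that carries small peptides and nitrate. UP12_3184 read 11.37, 11.13 and 10.85 in well-watered B47 leaves and 8.20, 8.03 and 8.80 under drought, and 10.90, 11.08 and 10.14 against 9.09, 9.51 and 8.82 in B128. Its root values were 5.54, 4.99 and 4.87 against 11.95, 12.37 and 12.46 in B47 and 5.65, 5.75 and 6.34 against 11.82, 10.51 and 12.69 in B128. Root levels under drought were 140-fold and 54.1-fold higher than with water, where all arrays were at the low end of the scale. No background was subtracted here beyond the authors' processing. UP12_29404 was 39.6-fold and 22.8-fold higher in drought-stressed roots and UP12_17976 21.7-fold and 15.2-fold, and both were also lowest in well-watered roots. In each of the 3, replicate 2 was the lowest of the B128 drought root arrays, and without it UP12_3184 no longer passed the organ test (leaf minus root 0.94 against 1.08 on all arrays).

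A pair of sulfate transporter unigenes, which encode proteins that take up or move sulfate, had larger changes in leaves than in roots. UP12_10934 read 12.83, 12.72 and 12.73 in well-watered B47 leaves and 8.89, 8.82 and 9.54 under drought, and 12.91, 12.53 and 12.24 against 9.73, 9.52 and 9.71 in B128. In roots it read 10.61, 10.35 and 10.64 against 11.91, 11.81 and 11.98 in B47 and 11.05, 10.59 and 11.54 against 12.59, 12.33 and 12.36 in B128. Leaves were thus the high organ with water and the low organ under drought in both lines. UP12_25551 ran in parallel, with changes of -3.44 and -2.82 in leaves and 1.20 and 1.42 in roots. Cysteine synthase (UP12_4733), which forms cysteine from reduced sulfur, was 7.10-fold and 9.24-fold lower in leaves and 1.64-fold and 2.01-fold higher in roots, and its B47 root arrays overlapped between treatments. A glutathione transferase (UP12_22810), of an enzyme class that joins glutathione to toxic compounds, was 8.72-fold and 6.78-fold lower in leaves, and its root arrays overlapped in both lines (changes of 0.76 and 0.79).

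These 4 sulfur-related members belong to a list of 25 unigenes for sulfate transport, cysteine synthesis and glutathione transfer, drawn up after the values were seen, of which 13 passed as lower in both leaf comparisons and 8 as higher in both root comparisons. Nramp3 (UP12_15731), a metal transporter that exports iron and manganese from the vacuole in Arabidopsis, had its smaller leaf change in B47, with means of 11.74 ± 0.07 and 10.84 ± 0.23, and was 3.20-fold lower in B128 leaves. Its root changes were 0.83 and 0.84. In the whole transporter list, 118 unigenes were annotated, 43 of which passed as lower in both leaf comparisons, 29 as higher in both root comparisons and 50 as lower in both root comparisons, and 6 of the 118 were members.

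Secondary metabolism was represented by 5 unigenes. E-beta-ocimene synthase (UP12_17477), which makes a volatile monoterpene, was at 14.27, 14.64 and 14.45 in well-watered B47 leaves and 15.25, 14.69 and 15.02 in B128 leaves. Under drought the values were 11.64, 11.76 and 11.65 in B47 and 10.22, 10.12 and 10.31 in B128, which is 6.83-fold and 27.3-fold lower. Well-watered roots read 6.15, 6.49 and 6.61 in B47 and 8.53, 7.03 and 7.00 in B128, against 8.89, 9.36 and 8.97 and 9.51, 9.14 and 9.55 under drought. The transcript was therefore still higher in leaves than in roots under drought, but the gap narrowed in both lines, from 8.04 to 2.61 in B47 and from 7.47 to 0.82 in B128 on the log2 scale. The other 3 terpene synthase unigenes annotated (terpene synthase 14) were lower in leaves and were not higher in roots, with root changes between -4.28 and -0.17.

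UDP-glycosyltransferase 90A1 (UP12_8774), of the enzymes that attach sugars to small molecules, was at 12.44 ± 0.15 and 12.69 ± 0.45 in well-watered leaves of B47 and B128 and at 10.98 ± 0.04 and 10.50 ± 0.12 under drought. In well-watered roots it was at the low end of the scale, at 4.62 ± 0.10 and 4.73 ± 0.27, and it reached 8.05 ± 0.21 and 7.95 ± 1.00 under drought. UDP-glycosyltransferase 73C2 (UP12_2244) was 5.26-fold higher in drought-stressed B47 roots and 1.68-fold higher in B128 roots, where the well-watered level was already 11.14 ± 0.48 against 9.34 ± 0.27 in B47. Ferulic acid 5-hydroxylase 1 (UP12_18514), which directs phenylpropanoids to sinapate esters and syringyl lignin, was 4.00-fold and 5.57-fold lower in leaves and 2.42-fold and 1.70-fold higher in roots, with overlapping B128 root arrays. An isoflavone reductase-like protein (UP12_10672) had leaf changes of -1.65 and -1.81 and root changes of 1.85 and 1.28. Apart from UDP-glycosyltransferase 73C2 (leaf minus root -0.13, SE 0.15), these members passed the organ test as higher in leaves, by 1.28 (SE 0.14) to 5.31 (SE 0.16). Of 95 annotated cytochrome P450 and glycosyltransferase unigenes, 52 passed as lower in both leaf comparisons and 3 as higher in both root comparisons.

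Defence-related members were 3 proteins of the pathogenesis-related families. Pathogenesis-related protein 5 (UP12_11547), a thaumatin-like protein, read 11.95, 12.74 and 12.59 in well-watered B47 leaves and 11.26, 11.00 and 11.41 under drought, and 12.89, 12.50 and 12.13 against 10.45, 10.94 and 10.11 in B128. In roots it read 7.07, 5.58 and 6.15 against 12.53, 13.42 and 13.41 in B47 and 8.02, 7.93 and 8.07 against 13.11, 13.00 and 13.13 in B128. Drought-stressed roots had the highest levels of all groups and well-watered roots the lowest, and among the members its root folds of 116 and 33.7 were below only those of UP12_3184. Pathogenesis-related 4 (UP12_2738), of a family that includes chitin-binding proteins, was at 11.92 ± 0.46 in well-watered B47 roots and 14.49 ± 0.21 under drought, whereas in B128 roots the well-watered level was 13.29 ± 0.46, the drought level 14.09 ± 0.32, and the arrays overlapped. The unigene described as sts14 (UP12_16450), a pathogenesis-related 1 type protein known from potato pistils, was low in leaves, with means from 5.57 to 6.90, and 9.05-fold and 9.11-fold higher in drought-stressed roots. Of 9 annotated pathogenesis-related unigenes, listed after the values were seen, 4 passed as lower and 1 as higher in both leaf comparisons, and 3 passed as higher and 2 as lower in both root comparisons. The lower pair in roots were a thaumatin-like protein (UP12_8941), at -2.68 and -3.22, and UP12_2866, at -3.40 and -3.63. Of the wider list of 35 defence unigenes, which holds 2 of the members, 12 passed as lower and 8 as higher in both leaf comparisons, and 4 as higher and 15 as lower in both root comparisons. Another thaumatin-like protein (UP12_18645) had root changes of 9.62 and 5.25 with leaf changes of 1.38 and 0.87.

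Regulators comprised 5 proteins that bind DNA or belong to such families and 2 of protein phosphorylation. An R2R3-MYB factor (UP12_12495) read 13.57, 13.77 and 14.25 in well-watered B47 leaves and 10.30, 10.71 and 10.76 under drought, and 11.14, 12.63 and 12.63 against 10.06, 10.52 and 9.97 in B128. In roots it was 7.19-fold higher under drought in B47 and 2.95-fold higher in B128, with no overlap in either organ. LOF2 (UP12_19590), a MYB factor of organ boundaries in Arabidopsis, was instead a root transcript under drought, at 12.67 ± 0.18 in B47 and 11.76 ± 0.13 in B128, against 7.71 ± 0.57 and 7.24 ± 0.22 with water. Its leaf changes were -1.96 and -0.83, and the B128 leaf arrays overlapped. The factor bHLH87 (UP12_27628) was 16.5-fold and 11.0-fold lower in leaves, among the larger leaf changes, and 2.67-fold and 1.96-fold higher in roots.

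A putative zinc-finger protein (UP12_12968) had leaf changes of -1.54 and -2.59 and root changes of 1.63 and 1.80. The CCT motif protein (UP12_8586), of a family that includes flowering and clock regulators, had the least spread of the described members, with leaf means of 12.10 ± 0.07 and 11.97 ± 0.14 with water and 11.04 ± 0.06 and 10.85 ± 0.09 under drought. A leucine-rich repeat kinase (UP12_7418) was highest in drought-stressed roots (9.99 ± 0.54 in B47 and 9.02 ± 0.74 in B128), and protein phosphatase 2C 12 (UP12_20169), of the class that includes the negative regulators of abscisic acid signalling, had a leaf change of -0.75 in B47 and -2.29 in B128. Of 136 annotated transcription factors, 4 were members, 42 passed as lower in both leaf comparisons and 29 as higher in both root comparisons. Of 143 kinases and phosphatases, 3 were members, 43 passed as lower in both leaf comparisons and 21 as higher in both root comparisons.

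Carbon metabolism, the cell wall and other roles added 5 members. The aspartyl protease-like protein (UP12_1810) is 1 of them and is described with the threshold below. Beta-fructofuranosidase 5 (UP12_18669), an invertase that splits sucrose into glucose and fructose, read 11.69, 10.92 and 11.43 in well-watered B47 leaves and 9.40, 9.43 and 9.58 under drought, and 11.68, 11.91 and 12.10 against 9.95, 9.50 and 9.73 in B128. In roots it read 9.10, 7.88 and 7.74 against 11.92, 12.89 and 12.77 in B47 and 9.75, 9.43 and 10.34 against 12.22, 10.19 and 12.19 in B128. The B47 root groups were apart (19.5-fold), whereas in B128 drought replicate 2 lay below the highest well-watered array. A pfkB-like carbohydrate kinase (UP12_4050), of the family of the fructokinases, had changes of -1.13 and -1.33 in leaves and 1.76 and 1.87 in roots, with no overlap. Arabinogalactan protein 16 (UP12_15343), a glycoprotein of the cell surface, was lower in leaves by 5.55-fold and 9.92-fold, with well-watered B128 leaf arrays at 11.57, 8.46 and 10.56. Cytochrome c-2 (UP12_7568), the electron carrier of mitochondria, was 8.65-fold higher in drought-stressed B47 roots and 4.04-fold higher in B128 roots. No member was found in the lists for photosynthesis (35 annotated unigenes), lipid, wax and cutin (89), carbohydrate metabolism (41), jasmonate and oxylipin (14) or ethylene (19). Among 62 cell wall unigenes, 1 was found. The carbohydrate list goes by keywords and takes in neither the invertase nor the pfkB-like kinase. Since 2.09% of all annotated unigenes are members, few would be found in lists of these sizes, and the absences say little about the classes.

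The rule did not use the difference between organs averaged over lines and treatments, and this was tested on all 24 arrays. By the same limma thresholds, 67 of the 174 unigenes (38.5%) were higher in leaves, where 17.6% of all unigenes were, and 56 (32.2%) were higher in roots, where 17.4% were. The share past the threshold in either direction, 70.7%, was close to that of the 166 unigenes with the opposite pattern (69.9%) and of the 1314 lower in both organs (69.5%), and that of the 807 higher in both was 50.9%. The other 51 passed in neither direction. The unigenes higher in leaves had a median of 12.24 in well-watered B47 leaves, 10.77 in drought-stressed B47 leaves, 7.37 in well-watered B47 roots and 9.40 in drought-stressed B47 roots. Those higher in roots had medians of 8.60, 6.57, 9.02 and 11.67 in the same groups, and the 51 had medians of 10.78, 9.07, 9.05 and 11.28. The largest differences among the members were 7.07 (SE 0.21, limma adjusted p = 8.19e-17) for UP12_21973 towards leaves and -5.31 (SE 0.25, adjusted p = 1.29e-13) for UP12_25144 towards roots, neither with a description. Among described members, UDP-glycosyltransferase 90A1 and E-beta-ocimene synthase (4.74, SE 0.14, adjusted p = 9.85e-17) led towards leaves, with the CCT motif protein (4.11, SE 0.08, adjusted p = 2.71e-19). The aspartyl protease-like protein (UP12_1810; -4.97, SE 0.30, adjusted p = 8.31e-12), sts14 (-4.10, SE 0.20, adjusted p = 1.84e-13) and arabinogalactan protein 16 (-3.69, SE 0.28, adjusted p = 2.55e-10) led towards roots.

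The order of the organs followed the treatment in many members. In well-watered plants, 140 members in B47 and 135 in B128 had a higher mean in leaves than in roots, and under drought 125 and 122 had a higher mean in roots. Both held for 91 members in B47 and 83 in B128. The median leaf minus root difference was 1.89 in B47 and 1.58 in B128 with water and -1.78 and -1.68 under drought. Over all unigenes it was -0.02 with water and -0.09 under drought in B47, and 0.003 and -0.09 in B128. These counts are made of the same changes as the rule and are a description. They were not set against shares of all unigenes. Of the 67 unigenes called higher in leaves, 49 in B47 and 51 in B128 remained higher in leaves under drought.

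**Figure D5:**
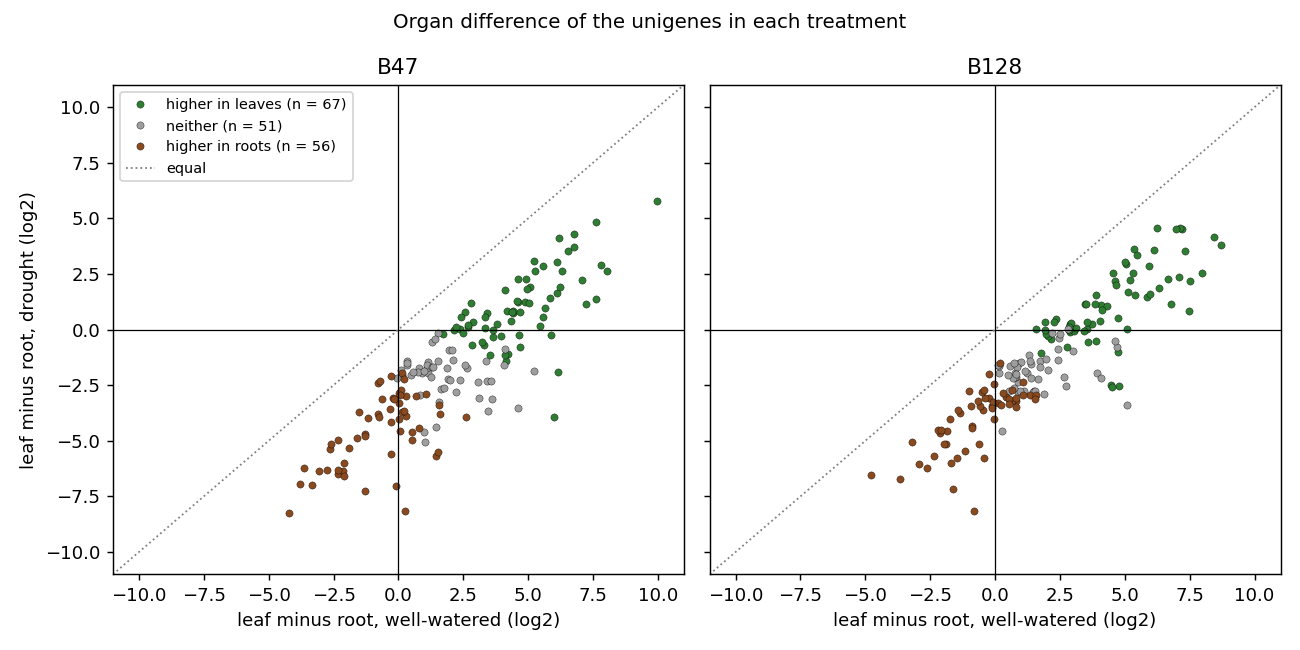
For each of the 174 unigenes, the leaf minus root difference in well-watered plants (horizontal, log2) is set against that in drought-stressed plants (vertical, log2), B47 on the left and B128 on the right, coloured by the organ test. All points lie below the dotted line of equal differences, as the rule requires, and the lower right field holds the 91 members in B47 and 83 in B128 that were higher in leaves with water and higher in roots under drought.

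The lines were compared in each organ as B128 minus B47 averaged over both treatments, which the rule did not use either. In leaves, 7 members (4.02%) were higher in B128, where 2.14% of all unigenes were, and 6 (3.45%) were higher in B47, where 2.16% were. In either direction, 7.47% of the members passed in leaves, beside 6.02% of the 166 unigenes with the opposite pattern. The leaf share was 13.7% of the 1314 lower in both organs and 5.33% of the 807 higher in both. In roots, 2 members (1.15%) were higher in B128 (1.14% of all unigenes) and 3 (1.72%) in B47 (1.26%). The signed line difference in leaves minus that in roots was positive past the thresholds for 5 members (2.87%), where 0.808% of all unigenes were. It was negative for 3 (1.72%), where 1.1% were. The median line difference over the members was -0.01 in leaves and -0.11 in roots. Most of these unigenes have no description and were named after their values were seen. UP12_14812 was higher in B47 in both organs, by 3.06 in leaves (B128 minus B47 -3.06, SE 0.18, limma adjusted p = 1.98e-10) and in roots (-2.18, SE 0.18, adjusted p = 4.33e-08), with well-watered leaf arrays at 12.91, 13.08 and 13.23 in B47 and 10.01, 10.19 and 11.05 in B128. UP12_28142 was higher in B128 in both organs (2.03, SE 0.28, adjusted p = 3.25e-05 in leaves and 1.49, SE 0.28, adjusted p = 0.00126 in roots).

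The largest line difference among members was that of UP12_19540 in leaves (-4.58, SE 0.59, limma adjusted p = 1.58e-05). It read 12.16, 12.96 and 12.58 in well-watered B47 leaves and 5.54, 9.21 and 10.01 in B128 leaves, and 9.40, 10.68 and 8.32 against 4.08, 4.93 and 4.87 under drought. The lines did not overlap in leaves under either treatment, although the well-watered B128 arrays were wide apart. UP12_23213, annotated only by the clone name F3F9.11, was lower in B128 leaves (-2.77, SE 0.30, adjusted p = 1.47e-06) and was the only annotated member to pass in leaves. None of the 38 members with an informative description passed a line test at a fold change of 2. Pathogenesis-related 4 in leaves, at -0.94 (SE 0.21, adjusted p = 0.00408), and UDP-glycosyltransferase 73C2 in roots, at 0.98 (SE 0.22, adjusted p = 0.00593), met the FDR but not the fold. Some of the calls depended on single arrays. UP12_23229 (1.22 in leaves) lost its call on leaving out any of 9 arrays, with adjusted p up to 0.0231, and UP12_7359 (-1.54 in leaves) on leaving out any of 8, with adjusted p up to 0.0227. For UP12_13619 (-1.66 in leaves) this held for 4 arrays, with adjusted p up to 0.013, and for UP12_605 (1.27 in roots) for 12, with adjusted p up to 0.0265.

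The size of the drought change was larger in B47 than in B128 for 102 members in leaves and 103 in roots, and differed between the lines by at least 1 log2 unit for 36 members in leaves and 35 in roots. These values come from the changes that chose the members and were not tested. The lines also differed in leaf water content under drought, so line and severity of the stress cannot be told apart here. Examples are E-beta-ocimene synthase, with leaf changes of -2.77 in B47 and -4.77 in B128, the DnaJ-like unigene, with leaf changes of -4.30 and -1.11, and beta-fructofuranosidase 5, with root changes of 4.28 and 1.69.

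The threshold on the change lies within a continuous range. The last members inside it were UP12_8524, the aspartyl protease-like UP12_1810 and UP12_20685, with smallest absolute changes of 0.715, 0.714 and 0.703. Nearest outside were UP12_3851, UP12_26515 and UP12_21940, at 0.699, 0.694 and 0.693. The aspartyl protease-like unigene shows how a member at the edge behaves. Its B128 root arrays read 11.21, 10.53 and 8.98 with water and 11.38, 9.91 and 11.58 under drought, which overlap, whereas its B47 root arrays read 10.35, 8.06 and 7.57 against 12.00, 11.64 and 11.85, which do not.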

How the data were processed

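The 24 arrays are 1-colour NimbleGen arrays with 4 probes per unigene. The authors normalized probe intensities by quantile normalization and summarized them with RMA (version not given in the sources used here), and the deposited values are linear intensities of 29471 unigenes and, as controls, 8 yeast entries. Changes shared by most transcripts are hidden by such a normalization. The intensities were log2-transformed without a pseudocount, the lowest being 4.52. The yeast entries entered no test, no detection calls were used, and the number of arrays limits the precision.

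Members were found with Python 3.11.15. The model, fitted in limma 3.58.1 (R 4.3.3) to all arrays, had a mean for each group, 16 residual and 2.88 prior degrees of freedom, and Benjamini-Hochberg adjustment over the 29471 unigenes. The tests were B128 minus B47 in leaves, the same in roots, and leaf minus root, each averaged over the other factors. In a balanced design these are orthogonal to the 4 drought changes used for selection. As in the study, calls require a 2-fold change and an FDR no higher than 0.01. The fit was tested on simulated data.

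The members and lists were chosen with earlier results of these data known, and the lists said to be drawn up after the values were seen had the members in view. Named unigenes are the 2 ranked first by their smallest absolute change, the 15 described members ranked first, up to 3 annotated members called in each direction of each test, up to 3 of each list, those at the edge of the threshold, and the described members with the largest leaf fall and root rise. All other named unigenes were picked after their values were seen. Descriptions were read from the gene tables of the study, and the fold changes and p-values of those tables were not used. A RefSeq gene table of cowpea shares no identifier with the unigenes, so no position or sequence is given. Alternatives were other scalings, blocks, filters, estimates of the spread, thresholds and arrays left out.

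Replicate numbers recur in every group. Arrays of the same number in different groups did not deviate together (mean correlation of their deviations 0.0017, against -0.00152 for different numbers). Leaf and root arrays of the same line and treatment could come from the same pots. For these pairs the mean correlation was -0.0287 with the same number and 0.0148 with different numbers. The numbers were therefore not used to pair samples.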

Additional observations from a re-analysis of the deposited data

Results flagged for a closer look

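For 8 members the line difference (B128 minus B47, averaged over treatments) depended on the organ, by a limma test of the leaf line difference minus the root line difference with a 2-fold change or more and an FDR no higher than 0.01. This test was added after the data were seen. It was positive for 5 members (2.87%), where 0.808% of all unigenes were, and negative for 3 (1.72%), where 1.1% were.

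The undescribed unigenes UP12_9415 and UP12_28065 were higher in B128 in leaves and higher in B47 in roots. The difference between the organs was 3.99 for UP12_9415 (2.43 in leaves and -1.56 in roots, adjusted p = 0.000304) and 3.87 for UP12_28065 (2.29 and -1.58, adjusted p = 0.000304). Their well-watered leaf means were 8.40 and 8.79 in B47 and 11.06 and 11.47 in B128, and their drought root means 11.59 and 11.96 in B47 and 9.50 and 9.78 in B128. Whether they are parts of 1 gene cannot be told without their sequences.

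UP12_19540 had a value of -3.76 (-4.58 in leaves and -0.82 in roots, adjusted p = 0.00948), with 1 well-watered B128 leaf array at 5.54 beside 9.21 and 10.01. For UP12_22746 the difference was 1.98 (1.48 and -0.50, adjusted p = 0.00888), for UP12_605 -1.90 (-0.63 and 1.27, adjusted p = 0.00789), for UP12_6806 1.70 (1.95 and 0.25, adjusted p = 0.00418) and for UP12_16062 1.28 (0.61 and -0.68, adjusted p = 0.00749). Pathogenesis-related 4 (UP12_2738) was the only described one, at -1.42 (-0.94 in leaves and 0.48 in roots, adjusted p = 0.00681).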

How the results depend on the processing

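No count, member median or difference of a named member changed direction under any alternative, but the medians over all unigenes in roots did, to -0.21 (B47) and -0.29 (B128) with equal yeast control means. Equal yeast control means gave 95 members, all among the 174, and shifted the median drought change of all unigenes by 0.32 and 0.04 in the leaves of B47 and B128 and by -0.31 and -0.40 in their roots, with member medians of -1.22 in B47 leaves and 1.52 and 1.11 in the roots of B47 and B128. A threshold of 1 gave 86 members. Leaving out each array gave 164 to 190 members, of which 156 to 172 were among the 174, and 96 of the 174 were kept in all 24 cases. The member medians then ranged from -1.58 to -1.47 (B47) and from -1.52 to -1.35 (B128) in leaves, and from 1.77 to 1.91 (B47) and 1.44 to 1.62 (B128) in roots. Beside the 13 leaf line calls on all unigenes, 8 were made without the 25% of unigenes of lowest mean. That filter took members such as UP12_23213 and UP12_28142 out of the test, so its smaller count is not a count of failed calls. At an FDR of 0.05 there were 20 calls, against a fold change of 2 there were 3, and without single arrays 10 to 16. Beside the 5 root line calls, the filter, the FDR of 0.05 and the fold change of 2 gave 3, 9 and 1. The filter took UP12_605 and UP12_28142 out of this test as well. Array weights (whose estimation did not fully converge) gave 21. Leaving out single arrays gave 4 to 9, with 8 without B128 well-watered root replicate 3 and 9 without B47 well-watered root replicate 1. The 123 organ calls stayed within 121 to 124 without single arrays, and UP12_3184 (0.94, without B128 drought root replicate 2) and UP12_15369 (0.99, without B128 well-watered root replicate 1) lost theirs. With the replicate number as a block, 14 leaf line, 5 root line and 123 organ calls were made, and UP12_605 lost its root line call (1.27, limma adjusted p = 0.0101), as it did with equal yeast control means (1.24, adjusted p = 0.0104), and 7 of 24 arrays deviated most like an array of their own number. Low intensities, as in well-watered roots, where both line means were below 8 for 63 members, were not corrected for background beyond the authors' processing.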
